A study of Drosophila melanogaster with 3 samples.

Results

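The regions described here are the binding peaks of CG17385 that lay far from any gene start in Drosophila melanogaster embryos. They are the 411 peaks, of 7588 in the reproducible list, whose summit was inside no annotated gene of any type and more than 5000 bp from the nearest start site of a protein-coding gene (5.42%, Wilson 95% interval 4.93 to 5.95). The rule uses position only, and neither signal nor sequence. The other peaks fell into 592 intergenic peaks at more than 500 and up to 5000 bp from a start site, 2702 intronic peaks, 3481 promoter peaks within 500 bp of a start site, and 402 in other places, such as exons and noncoding genes. The 3 intergenic peaks just short of the limit lay at 4965 to 4983 bp, with signals from 197 to 213, and the 3 members just past it at 5033 to 5045 bp, with signals from 167 to 278.

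Chromatin from male and female whole embryos, collected between 0 and 24 h of age, was profiled by chromatin immunoprecipitation sequencing (ChIP-seq) in 3 biological replicates of 1 group. The line carries a transgene that encodes CG17385 with GFP at its C-terminal end, and the antibody label names CG17385. There was no untagged or otherwise treated group, so peaks of 1 place are compared with peaks of another. The promoter of the tagged copy was not given in the sources used here, and all tissues of the embryo enter the signal together. A descriptive line of the labels speaks of an input control, against the assay and antibody labels, and the lists were read as ChIP lists. The reproducible list is the output of the IDR step (irreproducible discovery rate), which keeps peaks ranked alike in replicates, and its peaks are called IDR peaks below. The replicate lists and a pooled list hold 30000 peaks each, so that depth cannot be read from them.

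In the compact fly genome most protein-coding genes lie close together, and long stretches without genes are often found beside genes that control development. Such stretches can hold enhancers, which raise transcription of a gene from a distance and are bound by transcription factors at short sequences, as well as insulators and Polycomb response elements. A peak in such a stretch does not say which gene, if any, it serves, so the genes below are named as neighbours only.

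A short sequence recurred at these summits. The 8-base word CACTGAGA, counted on either strand, was present within 100 bp of the summit at 42 of the 411 members (10.2%, Wilson 95% interval 7.65 to 13.5) and in 3 of 411 windows (0.73%) of the same length centred 1000 bp away, called flanks below. The difference of 9.49 points had an adjusted p of 7.08e-06 (exact McNemar test, 2-sided, Benjamini-Hochberg over 32896 words of 8 bases). All words of 8 bases were counted only after those of 6 bases, and some longer runs built from them, had been seen, and this word is the one with the smallest p. Among the 145 members with a signal at or above the median of the IDR list, the difference was 9.66 points with an adjusted p of 1 (exact McNemar test over the same words). The 58 bases around its copy nearest to the summit, in the 8 strongest members that hold it and may be printed, are shown here. They also share letters outside the word. They come from the RefSeq copy of the Release 6 assembly (dm6), are named by the gene of the nearest start site and read along the strand of the word, and the capitals mark the word.
CG43401, chr2L:1433952-1434009, minus strand: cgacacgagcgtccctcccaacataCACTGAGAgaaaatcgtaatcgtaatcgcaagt
noc, chr2L:14502679-14502736, plus strand: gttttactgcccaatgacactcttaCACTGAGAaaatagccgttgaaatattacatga
hng3, chr3L:762567-762624, minus strand: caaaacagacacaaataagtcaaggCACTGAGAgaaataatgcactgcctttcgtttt
GCS2alpha, chrX:21594136-21594193, minus strand: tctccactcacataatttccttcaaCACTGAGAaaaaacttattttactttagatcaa
rux, chrX:6031805-6031862, plus strand: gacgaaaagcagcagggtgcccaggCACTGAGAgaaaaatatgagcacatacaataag
ems, chr3R:13914969-13915026, minus strand: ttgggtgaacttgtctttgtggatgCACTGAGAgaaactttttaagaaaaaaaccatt
CG4704, chr3R:22862247-22862304, minus strand: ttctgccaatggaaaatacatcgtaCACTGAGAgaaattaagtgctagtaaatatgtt
CG43245, chr3L:10783357-10783414, plus strand: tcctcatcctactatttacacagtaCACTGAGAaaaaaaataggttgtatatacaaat

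The word was followed by the letters A or G and then by A in nearly every member. Counting from the first base after the word in all 42 members, that base was G in 54.8% and A in 45.2%, and the next 3 bases were A in 90.5%, 92.9% and 81%. In the 4330 copies of the word on the 6 main chromosome arms, the share of A at these 3 bases was 53.6%, 54.5% and 50.8%. On the other side, the last base before the word was G in 64.3% and A in 31% of members, and the base before it was T in 73.8%, against 38.5%, 33.2% and 38.8% of all copies. Beyond this run the sequences differed. Over the 100 bases around the word, 50 on each side, the 861 pairs of members had a median of 29% identical letters and at most 45%.

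Words that overlap this run made up most of what was called. Of the 32896 words of 8 bases, 9 (0.0274%) were more frequent at the summits, with an adjusted p under 0.05 and a fold of at least 1.5. Besides the leading word, CTCAGTGC was present at 30 summits and 2 flanks (adjusted p = 9.50e-04, exact McNemar test), TCAGTGCA at 39 and 6 (0.00112), GAGAGAAA at 36 and 4 (0.00153), ACTGAGAG at 26 and 1 (0.00275) and TGAGAGAA at 27 and 3 (0.0308). The first pair are read on the other strand, and the 6 words overlap one another in a single run. At least 1 of the 6 was present at 77 member summits (18.7%), at 16 of their flanks (3.89%) and at 204 promoter summits (5.86%). These words were chosen on these summits, so the last 3 shares are a description. The other 3 called words, TATTAAAA, AAAATATT and AAAAATAT, hold only A and T. The number of words called was 2, 1 and 1 without replicates 1, 2 and 3, and 0 among peaks with a signal at or above the median or within 50 bp of the summit.

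Read along its own strand, the word mostly started before the summit. It did so in 39 of 42 members, with a median of -72.5 bp (quartiles -88.8 and -48.2), and in 37 members it started at least 40 bp before. Where a member held more than 1 copy, the one nearest to the summit was taken. At the printed members beside noc and GCS2alpha, copies on opposite strands lay on both sides of the summit, each starting before it along its own strand. In a wider window of 300 bp to each side, 55 of 59 copies at members started before the summit, as did 167 of 183 at intronic peaks and 69 of 99 at promoter peaks. Nearer intergenic peaks leaned to the same side. In steps of 20 bp they held up to 1.52 words per 100 peaks before the summit and at most 0.169 after it. The summit therefore lay on the side of the trailing A letters. The 50 bases before the word had a GC content of 48.2% ± 8.65 (SD over 42 members) and the 50 after it 30.8% ± 8.55, with the first higher in 40 of 42 members. Over all copies in the genome the means were 45.4% and 38.2%.

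**Figure D1:**
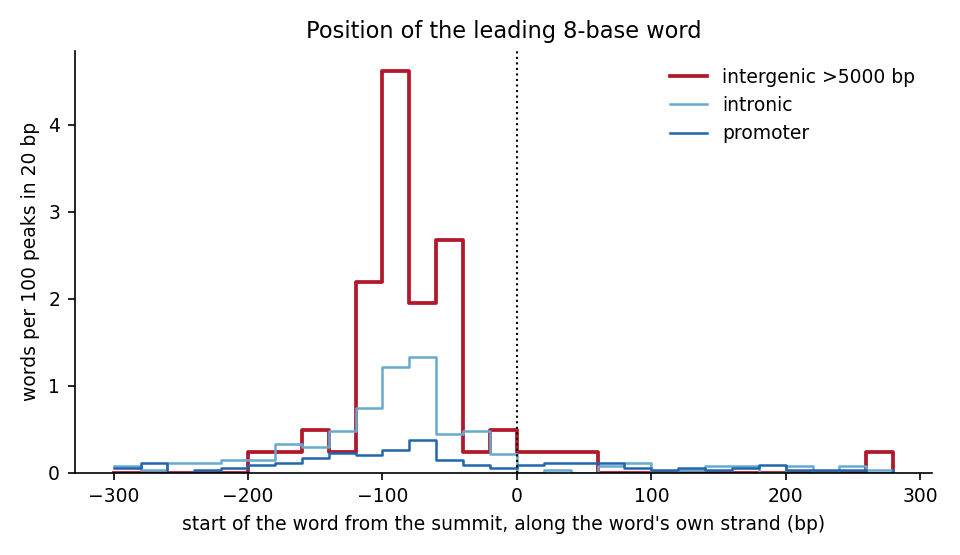
Position of the leading 8-base word around the summits. The x axis gives the start of the word relative to the summit in bp along the word's own strand, and the y axis the number of words per 100 peaks in steps of 20 bp. Members (red) show a rise between -120 and -40 bp, intronic peaks (light blue) a lower one on the same side, and promoter peaks (dark blue) few words. Nearer intergenic peaks are not drawn.

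The word was more frequent at the members than at most other classes of IDR peak. It was present at 4.73% of the 592 nearer intergenic summits, 3.7% of the intronic and 1.38% of the promoter summits. The flanks of these classes held it at 0.676%, 0.814% and 0.517%, so it was above its flanks in each of them too. The difference of members from promoter peaks was 8.84 points (Fisher exact test, 2-sided, adjusted p = 3.44e-14), from intronic peaks 6.52 points (adjusted p = 0.00238) and from all other IDR peaks 7.56 points (adjusted p = 8.19e-08). From nearer intergenic peaks it was 5.49 points, with a Fisher exact p = 9.83e-04 before and 1 after adjustment over all words. The share of words called higher in members was 0.116% (38 of 32896) against promoter peaks, 0.00608% (2) against intronic peaks, 0% against nearer intergenic peaks and 0.0243% (8) against all other IDR peaks. In the lists of single replicates, the far intergenic peaks among the 7588 strongest held the word at 8.56%, 8.05% and 8.58% of summits in replicates 1, 2 and 3. Their flanks held it at 0.276%, 0.424% and 0.536%, a difference of 7.99 points ± 0.334 (SD, n = 3; exact sign-flip test, p = 0.25, the smallest that 3 replicates allow). Of the members, 73.2%, 84.4% and 81% had a summit among those strongest peaks. The replicate lists thus largely share the sites on which the word was chosen. Their likeness is a description, and not a repeat at other sites. Among the weaker far intergenic peaks, those of the pooled list with no overlap to an IDR peak, it was present at 75 of 2443 summits (3.07%).

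**Figure D2:**
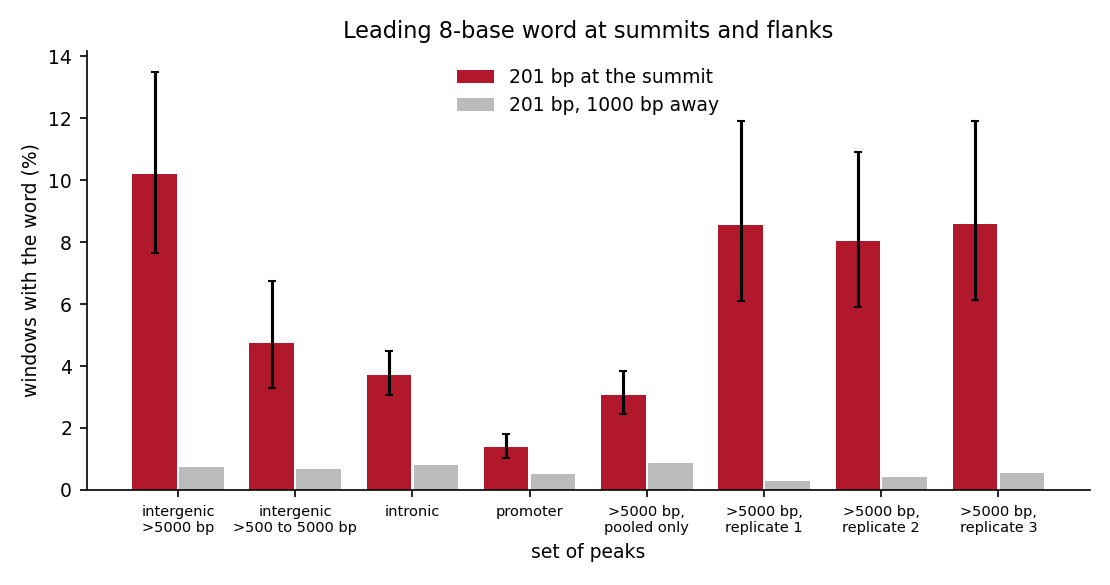
Share of windows, reaching 100 bp to each side, with the leading 8-base word, in percent, at summits (red) and 1000 bp away (grey). Error bars on the red bars are Wilson 95% intervals. The first 4 pairs of bars are the classes of IDR peak, the fifth the far intergenic pooled peaks outside the IDR list, and the last 3 the far intergenic peaks among the 7588 strongest of each replicate, which stand between 8.05% and 8.58%.

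The members that hold the word lay on 5 of the 6 arms, and the strongest of them ranked 15 among all members by signal. They lay in 42 different gaps between genes, and their signals ran from 161 to 814 with a median of 240, beside a median of 235 for the other 369 members. In 4 equal groups of the IDR list from strongest to weakest, 2 of 46, 13 of 99, 13 of 122 and 14 of 144 members held it. Of the 42, 25 (59.5%) had support in every replicate. Far intergenic sequence held 33 copies per Mb of the word, close to the 32.3 per Mb of the whole genome, and of its 792 copies 46 (5.81%) lay within 100 bp of a member summit. In 30 of the 42 members the word lay in sequence that the assembly marks as repeated or of low complexity, against 1403 of 4330 copies in the genome (32.4%). Annotated transposable elements held 91 of the 4330 copies (2.1%) and the summit of 0 of the 411 members. The part of repeated sequence in the frequency of the word was not tested.

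The nearest gene was on 1 of 8 lists of developmental genes for 7 of the 42 members with the word (16.7%), and for 86 of all 411 members (20.9%). The strongest with the word lay beside CG43401 (signal 814) and noc (806), a zinc finger gene of appendage and eye development. Others lay nearest to ems, a head gap gene (423), H15, a T-box gene (238), hth, which encodes a homeodomain partner of Hox proteins (194), and hry, the pair-rule gene hairy (161). These neighbours were picked after their values were seen.

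Of the 30 motifs searched at the members, 1 was called higher at the summit (3.33%) and 0 lower (0%). The called motif was TATAAA, the core of the TATA box, present at 153 of 411 summits (37.2%) and 23.4% of flanks (adjusted p = 0.00101, exact McNemar test). The other classes had like gaps, with 35.8% of summits and 24.8% of flanks in nearer intergenic, 35% and 23.4% in intronic and 30.2% and 19% in promoter peaks. The difference was 11.3, 13.8 and 9.12 points in replicates 1, 2 and 3 (mean 11.4 ± 2.33, SD, n = 3), whose lists share most of the members' sites. The call ended among members supported by both other replicates when replicates 1, 2 and 3 were set aside in turn. These sets held 285, 255 and 260 members, with adjusted p of 0.121, 0.911 and 0.251 (exact McNemar test) and differences of 11.6, 7.06 and 11.5 points. Motifs of 6 to 9 letters for Zelda, GATA factors, Bicoid, Caudal, Twist and other regulators of the embryo were not called. Zelda's CAGGTAG was present at 4 summits (0.973%) and 0.487% of flanks, and the homeodomain core TAATTA at 62 (15.1%) and 13.6%.

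Summits were poorer in GC than their surroundings, and the called TATA motif and several called words hold only A and T. The sequence within 100 bp of member summits had a GC content of 35.5% ± 7.71 (SD over members), and windows of that length 1000 bp to each side 40.7%, a difference of -5.2 points. Replicates 1, 2 and 3 gave differences of -4.11, -4.94 and -3.91 (mean -4.32 ± 0.547, SD, n = 3; exact sign-flip test, p = 0.25). Their lists share most of the members' sites, and so the same sequence. Nearer intergenic, intronic and promoter summits had differences of -5.33, -4.16 and -5.35 points, and far intergenic pooled peaks outside the IDR list -1.64 points. Of the 2080 words of 6 bases, 63 (3.03%) were higher at the member summits and 45 lower. They included AATATT at 148 summits and 75 flanks (adjusted p = 1.55e-05, exact McNemar test) and CTCCAG at 9 summits and 37 flanks (0.00177). The part of GC content in these calls was not tested.

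Of the elements known from promoters, DRE, M1BP and GAGA motifs were rarer at members than at promoter peaks. The DRE, TATCGATA, which is bound by DREF at promoters of housekeeping genes, was present at 1 member summit (0.243%) and at 5.17% of promoter summits (Fisher exact test, adjusted p = 1.15e-06). GGTCACAC, a core promoter motif bound by M1BP, was present at 0 members and 3.45% of promoter summits (Fisher exact test, adjusted p = 3.64e-05). GAGAGAG, the motif of GAGA factor, was present at 4.14% and 8.1% (Fisher exact test, adjusted p = 0.0315), whereas TATAAA was higher at members than at promoters, 37.2% against 30.2% (adjusted p = 0.0355). Of the 30 motifs, 3.33% were called higher and 10% lower against promoter peaks. Against all other IDR peaks 0% were called higher and 6.67% lower, namely the DRE (2.76% of the others, Fisher exact test, adjusted p = 0.0103) and the M1BP motif (1.87%, adjusted p = 0.0126). Those others include the promoter peaks, and nearer intergenic and intronic summits held the DRE at 1.01% and 0.407% and the M1BP motif at 0.507% and 0.407%. TCAGTT, the initiator, was present at 14.6% of members and 13.3% of promoter summits, with no call (Fisher exact test, adjusted p = 0.763).

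The sequences at the 3 strongest members that may be printed show what the stronger summits look like. They reach 100 bp to each side of the summit in the same assembly, on the plus strand, named by the gene of the nearest start site. Capitals mark TATAAA on either strand, the motif called at the summits.
eEF1gamma, chr3R:29214333-29214533, plus strand: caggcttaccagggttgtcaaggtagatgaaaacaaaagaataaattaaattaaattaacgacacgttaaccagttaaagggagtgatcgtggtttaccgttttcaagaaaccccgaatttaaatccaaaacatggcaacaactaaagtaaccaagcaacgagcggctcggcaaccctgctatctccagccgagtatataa
chinmo, chr2L:1643358-1643558, plus strand: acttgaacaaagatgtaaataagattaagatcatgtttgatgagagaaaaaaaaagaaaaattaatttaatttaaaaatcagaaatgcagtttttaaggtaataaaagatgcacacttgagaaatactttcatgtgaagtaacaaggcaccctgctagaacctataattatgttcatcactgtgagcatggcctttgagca
chinmo, chr2L:1638750-1638950, plus strand: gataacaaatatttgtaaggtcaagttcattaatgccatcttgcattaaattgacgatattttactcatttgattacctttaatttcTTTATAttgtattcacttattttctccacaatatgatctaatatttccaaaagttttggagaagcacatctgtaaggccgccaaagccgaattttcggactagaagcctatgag

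The first of these, beside eEF1gamma, a translation elongation factor subunit gene, had a GC content of 40.3%, and those beside chinmo, a zinc finger gene of neuronal timing, 29.9% and 31.8%. The last is the strongest member that holds TATAAA. None of the 3 holds CACTGAGA. The first of those beside chinmo holds TGAGAGAA and GAGAGAAA, which are among the called words that overlap in the same run.

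Members were weaker than the other peaks of the IDR list. The signal is the authors' score of a peak, on a scale that is not stated. It ran from 160 to 3980 with a median of 237, against medians of 270 for nearer intergenic, 270 for intronic and 332 for promoter peaks. A signal at or above the IDR median of 294 was found for 145 of 411 members (35.3%), against 43.9% of nearer intergenic (Fisher exact test, 2-sided, adjusted p = 0.00727), 45.1% of intronic (adjusted p = 2.75e-04) and 57.1% of promoter peaks (adjusted p = 1.65e-16). With the limit at 10000 bp from a start site the differences from nearer intergenic and intronic peaks were -2.56 and -6.72 points, with no call (Fisher exact test, adjusted p = 0.537 and 0.0882). Of the 100, 500 and 1000 strongest IDR peaks, 1, 5 and 13 were members. Peaks are not independent replicates, so these p-values cover counting error over peaks. In the replicate lists the median position of members was 5188, 4517 and 5258 (mean 4988 ± 409, SD, n = 3), against 3134 ± 5.27 for promoter peaks. The members stood behind in each replicate, by 1854 ± 413 places (exact sign-flip test, p = 0.25).

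**Figure D3:**
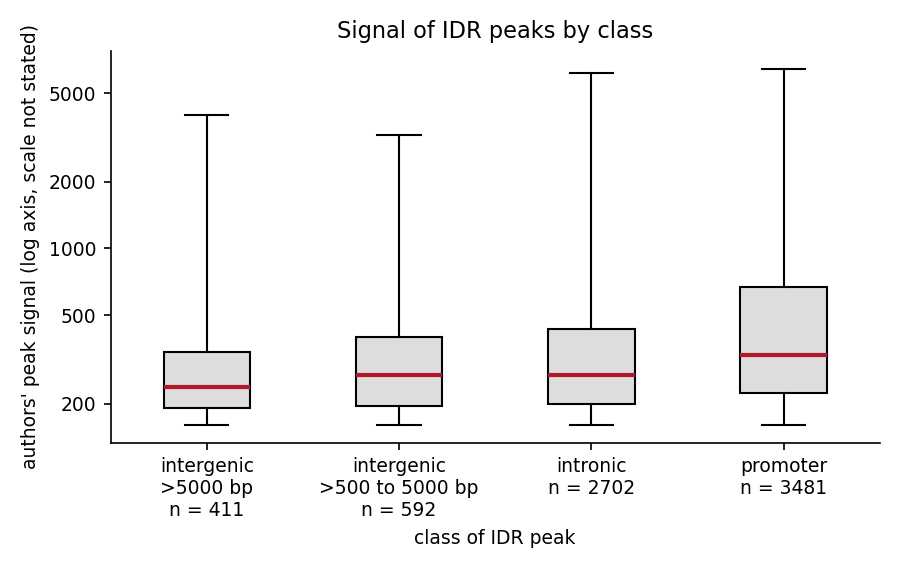
Signal of IDR peaks by class on a log axis. Boxes span the quartiles with the median in red, and whiskers reach the lowest and highest peak. The members, at the left, have a median of 237 and an upper quartile of 341, against 332 and 668 for promoter peaks.

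The same order was seen between strong and weak peaks. The class held 5.42% of IDR peaks and 2443 of 20961 peaks of the pooled list without overlap to them (11.7%, Wilson 95% interval 11.2 to 12.1), a difference of -6.24 points (Fisher exact test, p = 2.02e-60). It made up 3.17% of the 3000 strongest pooled peaks and 12.7% of the 3000 weakest. Within replicates 1, 2 and 3 it was 4.77%, 6.22% and 4.92% of the 7588 strongest peaks and 9.82%, 12.3% and 10.5% of the rest, a difference of -5.57 points ± 0.527 (SD, n = 3; exact sign-flip test, p = 0.25). Of the far intergenic peaks of the pooled list 14% were in the IDR list, against 19.4% of nearer intergenic, 20.3% of intronic and 41.6% of promoter peaks.

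Support in every replicate was less frequent than at promoters, and this moved with signal and differed between replicates. A summit within 100 bp among the 7588 strongest peaks of every replicate was found for 227 of 411 members (55.2%), in 2 replicates for 119, in 1 for 62 and in none for 3. The share was 65.8% for promoter peaks (Fisher exact test, adjusted p = 9.53e-05), 60.4% for intronic (adjusted p = 0.0779) and 58.4% for nearer intergenic peaks (adjusted p = 0.331). Taken 1 replicate at a time, 73.2%, 84.4% and 81% of members and 84.9%, 79.4% and 89.1% of promoter peaks had a summit among the 7588 strongest in replicates 1, 2 and 3. Members were thus higher in replicate 2 and lower in the others (mean -4.91 points ± 8.76, SD, n = 3; exact sign-flip test, p = 0.5). Without replicate 1 the difference from promoter peaks was -4.34 points in place of -10.6 (Fisher exact test, adjusted p = 0.203), and among peaks with a signal at or above the median -1.57 points (adjusted p = 0.559). Counting summits at any position of the replicate lists turned it, with 91.2% of members and 86.5% of promoter peaks supported in every replicate (4.71 points, Fisher exact test, adjusted p = 0.0194). In 4 equal groups of the IDR list from strongest to weakest, 93.5%, 89.9%, 69.7% and 6.94% of members were supported in every replicate, beside 97.7%, 85.8%, 51.4% and 5.77% of promoter peaks.

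**Figure D4:**
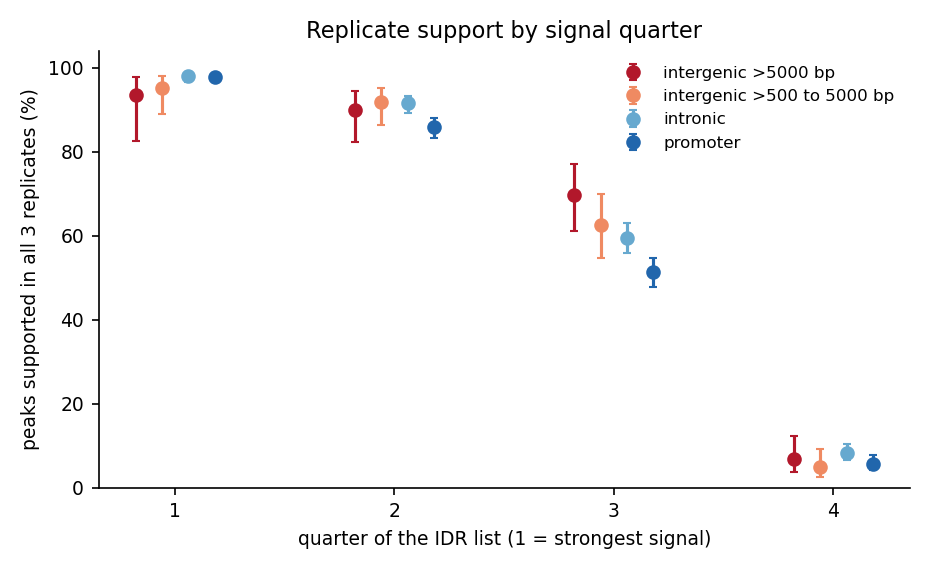
Share of peaks with a summit among the 7588 strongest of all 3 replicates, in percent, by class in 4 equal groups of the IDR list, the strongest at the left. Points are shares and bars Wilson 95% intervals. All classes fall from over 93% in the strongest group to under 9% in the weakest, and the members stand at 69.7% in the group before the last beside 51.4% of promoter peaks.

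The strongest member lay between the Polycomb group gene Su(z)2 and CG13323 on chromosome 2R. Its summit at 13035355 had a signal of 3980 and stood at positions 22, 11 and 13 in replicates 1, 2 and 3. Another member in the same part of the chromosome, at 12959448 between CG13321 and Psc, a Polycomb group gene next to Su(z)2, had a signal of 1120 and positions 765, 548 and 677. The member at 22678401 lay beside RYBP, which encodes a protein that binds Polycomb group proteins, with a signal of 1226 and positions 527, 529 and 589. These 3 are among the 20 strongest, and were set together after their neighbours were seen.

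Below the strongest came the members on the other chromosomes. The member beside eEF1gamma, at 3R 29214433, had a signal of 2303 and positions 200, 86 and 136, and it lay 129 bp from the noncoding gene lncRNA:CR31044. Upstream of chinmo lay 3 of the 20 strongest members, at 2L 1643458, 1638850 and 1632840, with signals of 1879, 1681 and 832 and positions 274, 209 and 269, then 291, 392 and 307, then 1320, 897 and 925. The member beside CG15429, at 2L 4346842 in a gap of 1724 bp between genes of any type, had a signal of 1539 and positions 348, 405 and 403. Each of these members stood near the top of all 3 replicate lists of 30000 peaks.

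The rest of the 20 strongest members had signals from 709 to 1301. They included a summit beside lgs, the Wnt pathway cofactor gene legless, at 4 424841 (signal 906), one beside the small-peptide gene tal-1A, at 3R 13800634 (876), and one beside noc, at 2L 14502756 (806). A summit beside tsh, which encodes the trunk selector teashirt, at 2L 21846900, had a signal of 709 and positions 1029, 1241 and 1566. One beside Ids, at 3L 3396312, had a signal of 720, and 2 lay in the gap beside CG43245, at 3L 10752757 and 10740068, with signals of 1301 and 760. The remaining 5 lay nearest to CG13898 (1047), CG7560 (903), CG45413 (824), CG43401 (814) and CG6163 (711). The position farthest from the top among the 20 was 1431, 1241 and 1566 in replicates 1, 2 and 3. The 3 weakest members, nearest to Dyro, CG43195 and spag4, had signals of 161, 160 and 160, and each had support in 1 replicate.

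**Figure D5:**
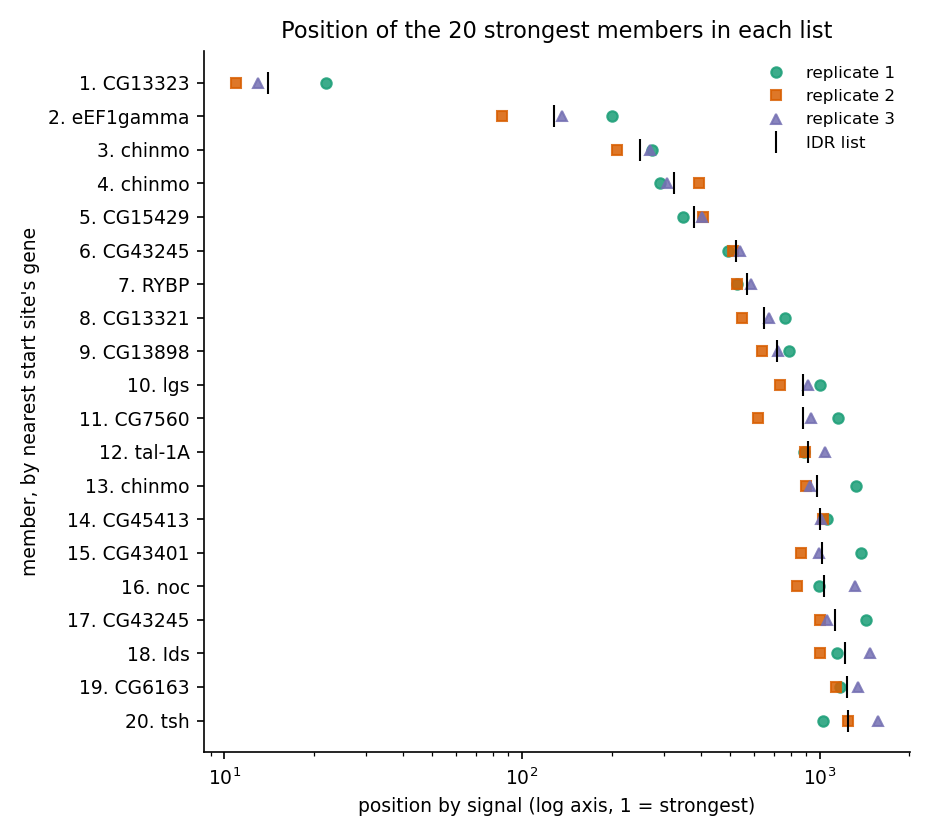
Position of the 20 strongest members in the replicate lists (coloured symbols) and in the IDR list (black bars), on a log axis where 1 is the strongest peak. Members are named by the gene of the nearest start site. The strongest member stands at positions 22, 11 and 13, and no position is beyond 1566.

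Far intergenic sequence made up 24 Mb (17.9% of the 6 arms) and held 17.1 members per Mb, against 65.3 other IDR peaks per Mb elsewhere. The distance from a member to the nearest start site had a median of 10534 bp and reached 63973 bp, at a summit between Cyp12e1 and hth (3R 10498762, signal 164). Next came a summit between vvl and Prat2 at 60308 bp (3L 6853656, signal 509) and another between Cyp12e1 and hth at 59533 bp (3R 10494322, signal 289). The nearest other IDR peak lay at a median of 5140 bp, against 2520, 1904 and 2143 bp for nearer intergenic, intronic and promoter peaks. The rule itself keeps promoter peaks at a distance from members, so this spacing is in part set by it. The members lay in 264 gaps between genes, of which 177 held 1 member, 58 held 2, 16 held 3 and 13 held at least 4. By chromosome there were 143 members on 3L (22.3 per Mb of far intergenic sequence), 96 on 2L (22.5), 78 on 3R (17), 46 on 2R (8.85), 45 on X (13.3) and 3 on 4 (19.2). The far intergenic pooled peaks outside the IDR list were divided in a similar way, with 31.1%, 23.8%, 19.4%, 12.7%, 12.4% and 0.532%.

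Some gaps held several members, which share their neighbours and are not independent. A gap and its length run between the nearest genes of any type, noncoding ones included. Gaps are named here by the nearest protein-coding gene on each side, which can lie beyond the end of the gap. On 3L the gap between hng3 and CG13898 (32964 bp) held 8, with signals from 162 to 1047, and the gap before it, between CG13896 and hng3, 6. The gap between NijA and CG43245 (75047 bp) held 7, with signals from 170 to 1301. On 2L the gap between RFeSP and chinmo (20910 bp) held 6, with signals from 184 to 1879, of which 5 had support in every replicate. On 3L a gap between CG44362 and CG7560 held 6, and the stretch between CG6168 and CG6163 held 6 and 5 in 2 gaps parted by a noncoding gene. Gaps between vvl, a POU homeobox gene, and Prat2, and between CG15283 and noc, held 5 each. The gap between Su(z)2 and CG13323 on 2R, that between Ids and sty, the gene of the receptor kinase antagonist sprouty, that between ems and Art9 and that between CG6414 and CG43689 held 4 each. The densest stretch of 1 Mb was 3L from 11000001 to 12000000 with 30 members.

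The nearest protein-coding gene had an IDR promoter peak of its own for 141 of 411 members (34.3%, Wilson 95% interval 29.9 to 39), against 23.9% for far intergenic pooled peaks outside the IDR list and 26.9% of all protein-coding genes. No test was made, since members share neighbours. Developmental genes were neighbours of members at shares near those of weaker peaks in such places. The nearest gene was on 1 of 8 lists of developmental genes for 86 members (20.9%), for 18.5% of the far intergenic pooled peaks outside the IDR list and for 6.17% of other IDR peaks. By list, gap and head gap genes were nearest to 10 members (2.43%, against 1.06% of the weaker far intergenic peaks), among them 5 at ems and 4 at oc, which encodes the head homeodomain protein orthodenticle. Pair-rule and segment polarity genes were nearest to 15 (3.65% against 2.37%), 4 of them at hry, dorsoventral genes to 9 (2.19% against 1.43%), and secreted signals to 9 (2.19% against 1.43%). Other homeobox and Pax genes were nearest to 17 (4.14% against 4.05%), 4 of them at vvl. Other developmental transcription factor genes were nearest to 26 (6.33% against 4.67%), including noc with 5 and chinmo with 4, axon guidance and adhesion genes to 10 (2.43% against 3.81%), and Hox genes to 1 (0.243% against 0.327%). Counting both flanking genes, 32.6% of members and 32.7% of the weaker peaks had a listed neighbour.

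Neither peak width nor repeats passed a test between the members and another class in the whole list. A width at or above the IDR median of 440 bp was found for 51.3% of members, 51.4% of nearer intergenic, 50.3% of intronic and 56.9% of promoter peaks (adjusted p = 1, 1 and 0.106, Fisher exact test). Many peaks share this exact width. It was the median of each of these classes. Among far intergenic pooled peaks outside the IDR list it was the lower quartile, the median and the largest width. Among peaks with a signal at or above the median, split at their own median width, the differences were -11, -12.1 and -31.7 points (Fisher exact test, adjusted p = 0.0302, 0.0077 and 3.22e-13). Annotated transposable elements held 0 of 411 member summits, which allows a share of up to 0.926% (Wilson 95% bound), and 5, 4 and 6 of the summits of the other 3 classes. The summit base was marked as repeated or of low complexity for 23.1% of members, 24.2% of nearer intergenic, 26.5% of intronic and 22.1% of promoter peaks, with no call (adjusted p = 0.763, 0.445 and 0.763, Fisher exact test).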

How the data were processed

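ChIP-seq peak lists of 3 replicates were used. Per the deposited text descriptions, the authors made each replicate list from that replicate's alignment and 1 further file common to all replicates, the pooled list from all 3 alignments and that file, and the IDR list from these lists, on dm6. Names of the aligner and the caller, and the IDR threshold, were not given in the sources used here. For each peak the signal and the −log10 of the q-value were deposited by the authors, and the scale of the signal is not stated. This signal ranked peaks within a list, the q-values were not tested, and depth is unknown.

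Summits are printed 1-based. Genes came from the Ensembl release 115 annotation, without transposable elements, and sequence and its lower-case marking from the RefSeq copy of the Release 6 assembly. A class other than promoter lies over 500 bp from a start site. Peaks were matched when summits lay within 100 bp. Motifs and words were counted on either strand within 100 bp of the summit, and each flank was centred 1000 bp away, upstream or downstream at random (seed 17). Calls needed an adjusted p under 0.05, and for words also a fold of at least 1.5. A count under 3 in the denominator of the fold was taken as 3. Adjustment was by Benjamini-Hochberg over 30 motifs, 2080 or 32896 words, or 3 classes. With 3 replicates an exact sign-flip test cannot go below p = 0.25. The tests were checked on simulated data with planted words and shares. Named were the 20 strongest members with support in every replicate, the 3 weakest, the 3 farthest from a start site, those nearest the limit, and gaps with 4 or more members (the rule held 10, and those tied at 4 members were added after their values were seen). Alternatives were setting aside each replicate, other distance limits, peaks with a signal at or above the median, leaving out transposable elements, other matching, annotation, window and flank settings. Setting aside a replicate kept the IDR list made from all 3, and took its peaks with support in both other replicates. Support itself was then counted in those replicates over the whole IDR list. Members and lists were chosen with earlier results of these data known. Python 3.11.15, NumPy 2.4.6, pandas 2.3.3 and SciPy 1.17.1 were used.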

Additional observations from a re-analysis of the deposited data

How the results depend on the processing

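Of 213 values recomputed under 16 other settings, 146 kept their direction and side of the threshold, or stayed within the replicate spread or 1.5 times a count. Where others changed, the cause was not tested. Settings with fewer members have fewer windows to test. A window of 50 bp to each side ends before most copies of the word, whose median start was -72.5 bp from the summit. The part of either in the changes was not tested. Setting aside each replicate in turn kept the members with support in both others, 255 to 285 of them. These gave 0 to 0 motifs higher, 1 to 2 words of 8 bases higher and a GC difference of -4.88 to -4.08 points. Support differences, counted in the other replicates over the whole IDR list, were -14.6 to -4.34 points from promoter and -6.16 to -2.68 from intronic peaks. In the sets of 255 to 285 members the leading word was 8.42 to 10.4 points above its flanks (adjusted p = 0.0265, 9.80e-04 and 0.00368, exact McNemar test). With the limit at 2000 bp there were 686 members, a replicate share difference of -7.8 points, 4 motifs higher than at promoters, 2 higher and 5 lower than at all other peaks, and 115 and 27 words of 6 and 8 bases higher. The support difference from intronic peaks was then -5.15 points. With the limit at 10000 bp there were 224 members, with a replicate share difference of -3.06 points, signal differences of -2.56 and -6.72 points from nearer intergenic and intronic peaks that no longer passed the test (Fisher exact test, adjusted p = 0.537 and 0.0882), and width differences of -8.63 and -12.3 points from nearer intergenic and promoter peaks. There were then 0 motifs higher at the summit or than at promoters, 0 lower than at all other peaks, and 18 and 2 words higher. Among IDR peaks with a signal at or above the median (145 members) the replicate share difference was -6.57, the signal difference from nearer intergenic peaks -7.51 (Fisher exact test, adjusted p = 0.162), the support difference from promoter peaks -1.57 and the GC difference -4.27 points. The width differences were -11, -12.1 (1.04 in the whole list) and -31.7 points. There were 0 motifs higher at the summit, 0 higher or lower than at promoters, 0 lower than at all other peaks and 0 words of 6 or 8 bases higher, and the leading word stood 9.66 points above its flanks (exact McNemar test, adjusted p = 1). With 50 bp to each side, 2 motifs were higher and 5 lower than at promoters, 1 higher and 0 lower than at all other peaks, 36 and 0 words were higher, and the leading word was 2.43 points above its flanks (exact McNemar test, adjusted p = 1) and 2.43 above promoters (Fisher exact test, 0.0874). With flanks 500 bp away 129 and 15 words were higher. Matching within 50 bp gave a support difference of -5.8 points from intronic peaks, and any position of the replicate lists 4.71 points from promoter peaks. The DRE fell short of the threshold against promoters among the stronger peaks (Fisher exact test, adjusted p = 0.255), and against all other peaks there (0.855), at 10000 bp (0.138) and with 50 bp to each side (0.197). The alternatives for words of 8 bases were chosen after seeing the data. The RefSeq annotation also gave 411 members.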
